A study of Mus musculus with 6 samples.

Results

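Broad peaks of open chromatin were the 253 autosomal regions, of 182166 consensus peaks in all, whose listed end lay at least 1500 bp past the listed start. They made up 0.142% of the 177874 autosomal peaks and 0.732% of the bases that those peaks cover. Another 7 peaks of that width lay on the sex chromosomes and were left out. Width is not a measure of the genotype difference, but the peaks were called on the same libraries whose values are compared here, and how peak calls of single libraries were merged is not given in the sources used here.

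The values came from ATAC-seq, in which a transposase cuts accessible DNA, of granulocyte-monocyte progenitors (GMPs) sorted by flow cytometry from bone marrow of untreated C57BL/6 mice. In GFI1-KI mice (3 libraries) human GFI1 stands in place of mouse Gfi1, and in GFI1-KD mice (3 libraries) human GFI1, again in place of the mouse gene, is expressed at 10 to 20%. Both genotypes thus carry the human gene, and no mouse with its own Gfi1 was part of the comparison. Age, sex and whether each library came from its own animal are not in the labels, so the p-values cover only the spread among libraries, which may be technical. Each value is a normalized read count per peak, and peak positions are given as deposited, on mm10.

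GFI1 is a zinc-finger repressor that recruits histone-modifying enzymes to its target genes and takes part in the choice of GMPs between granulocyte and monocyte fates. A wide stretch of open chromatin typically forms at active promoters rich in CpG dinucleotides, where nucleosomes are depleted over the start site, and at dense clusters of regulatory elements. Transposase cuts all along such a stretch, so wide peaks also collect many reads.

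Of the 253 broad peaks, 182 held a start site in the RefSeq promoter table, and the promoters of some of these genes show the sequence that the broad peaks cover. The runs are the 250 bases before the start site, read 5′ to 3′ along the gene, from RefSeq on GRCm38.p6 (mm10), with each CpG in capitals. They are from the broad peaks at Cdk13 (the longest peak with a start), Gsk3b (among the highest in value), Cdkn2aip (one of the most firmly lower in GFI1-KD) and Vim (fitted higher in GFI1-KD), each with a single coding start in the peak.
Cdk13, chr13:17805098-17805347 on the minus strand: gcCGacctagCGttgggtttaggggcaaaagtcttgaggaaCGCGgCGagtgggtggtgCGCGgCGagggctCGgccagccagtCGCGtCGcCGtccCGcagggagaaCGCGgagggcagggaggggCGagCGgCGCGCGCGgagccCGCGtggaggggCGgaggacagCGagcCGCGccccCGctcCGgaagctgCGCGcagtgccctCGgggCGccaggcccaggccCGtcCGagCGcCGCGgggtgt
Gsk3b, chr16:38088751-38089000 on the plus strand: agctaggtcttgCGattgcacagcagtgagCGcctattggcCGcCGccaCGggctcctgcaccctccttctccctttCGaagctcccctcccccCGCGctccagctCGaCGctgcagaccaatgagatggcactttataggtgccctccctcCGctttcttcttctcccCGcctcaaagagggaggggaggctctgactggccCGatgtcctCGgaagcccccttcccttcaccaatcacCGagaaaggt
Cdkn2aip, chr8:47713932-47714181 on the minus strand: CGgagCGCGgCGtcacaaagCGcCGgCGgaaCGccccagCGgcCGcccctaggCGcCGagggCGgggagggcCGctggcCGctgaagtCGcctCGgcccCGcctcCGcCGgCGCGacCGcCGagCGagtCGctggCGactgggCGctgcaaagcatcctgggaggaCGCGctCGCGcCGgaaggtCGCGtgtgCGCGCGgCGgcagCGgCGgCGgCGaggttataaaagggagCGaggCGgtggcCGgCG
Vim, chr2:13574061-13574310 on the plus strand: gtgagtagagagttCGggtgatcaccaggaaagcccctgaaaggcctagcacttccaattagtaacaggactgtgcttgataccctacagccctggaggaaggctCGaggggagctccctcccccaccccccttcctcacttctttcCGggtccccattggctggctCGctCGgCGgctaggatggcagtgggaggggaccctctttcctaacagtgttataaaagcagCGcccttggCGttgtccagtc
The Cdkn2aip run held 47 CpGs, with an observed to expected CpG ratio of 1.25, and the Cdk13 run held 39, with a ratio of 1.1. That ratio divides the CpG count by the count that the C and G content alone would give. The Gsk3b run held 15 CpGs with a ratio of 0.66, and the Vim run held 8 with a ratio of 0.38, so broad peaks also lay over promoters with few CpGs.

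Over all broad peaks, promoter windows were rich in CpG. The windows compared span 250 bases before to 50 bases after each start, and 251 of them, from 192 genes, lay in broad peaks. Their median GC content was 71.3% (interquartile range 66.3 to 75.8), against 62.0% for the 11686 windows in shorter peaks and 48.3% for the 8147 windows in no peak. The median CpG ratio was 0.93 in broad peaks (interquartile range 0.79 to 1.03), 0.77 in shorter peaks and 0.21 in no peak. A ratio of at least 0.6 was found in 92.8% of windows in broad peaks, 73.9% of those in shorter peaks and 48.9% of all 20084 windows. Shorter peaks of 1000 to under 1500 bp came close to the broad ones, with a median ratio of 0.87 and 89.3% of windows at 0.6 or above. Several windows can come from 1 gene and overlap, so the shares are a description.

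**Figure D1:**
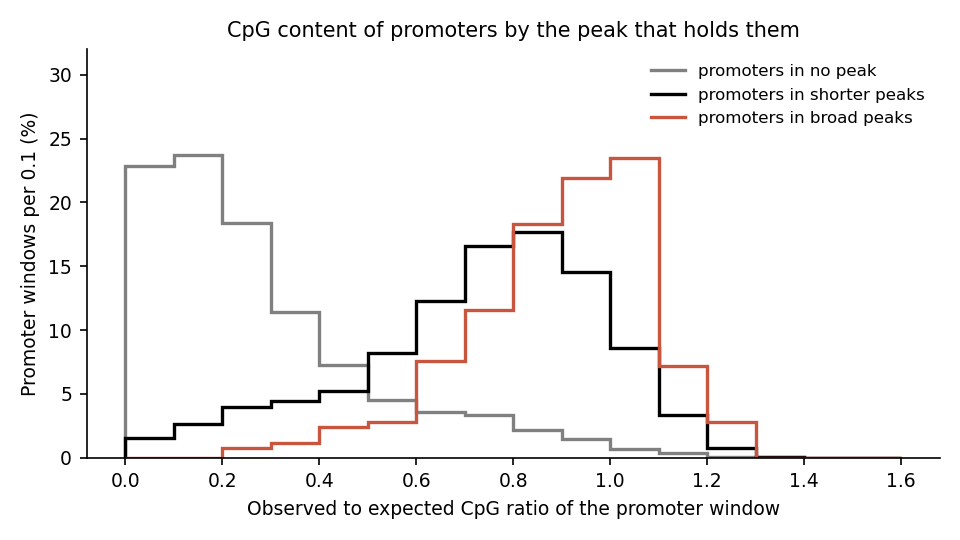
Distribution of the observed to expected CpG ratio (horizontal axis, no unit) over promoter windows in broad peaks, in shorter peaks and in no peak, as the percent of windows per step of 0.1. Windows in broad peaks (median 0.93) sit to the right of windows in shorter peaks (median 0.77), and windows in no peak (median 0.21) lie mostly at the left.

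Motif letters were searched in the same windows on both strands, with N for any base. GGGCGG, the GC box bound by SP factors, stood in 80.1% of windows in broad peaks, 79.8% of those in peaks of 1000 to under 1500 bp, 66.6% of those in all shorter peaks and 47.0% of all windows; it is made of C and G alone, as are most bases of these windows. GCGCATGC, the NRF1 motif, stood in 6.0% of windows in broad peaks, 6.3% in peaks of 1000 to under 1500 bp and 3.5% of all windows. CCGGAAGT, an ETS motif, stood in 5.2%, against 7.9% in peaks of 1000 to under 1500 bp, 8.2% in all shorter peaks and 5.3% of all windows, which include 1.1% of windows in no peak. TGTGGT (RUNX) stood in 9.2%, 8.6% and 14.8% of windows in broad peaks, in peaks of 1000 to under 1500 bp and among all promoters, TTGCNNAA (C/EBP) in 3.6%, 5.7% and 10.3%, TGANTCA (AP-1) in 1.6%, 3.4% and 7.1%, and GAGGAAGT (PU.1) in 2.4%, 2.2% and 3.2%. AATCACNGC, the GFI1 core, stood in 2 windows of broad peaks (0.8%), 0.9% of those in peaks of 1000 to under 1500 bp and 1.1% of all windows. CCAAT, bound by NF-Y, stood in 31.1%, 33.5% and 38.1%. A match is a run of letters, not a bound site, and none of these motifs was tested.

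Broad peaks lay mostly at genes. Gene-end peaks, those no more than 1 kb from where a RefSeq protein-coding gene begins or stops, numbered 205 of the 253 (81.0%), against 15.7% of shorter peaks and 74.7% of peaks of 1000 to under 1500 bp. A start site was held by 71.9% of broad peaks and 6.4% of shorter ones. Another 49 lay at a gene end without a start from the promoter table, and 22 had neither. The broad peaks were assigned to 248 genes, of which Rai1 and the predicted gene Gm38664 had more than 1. No neighbouring pair lay within 10 kb and 7 pairs lay within 100 kb. Among these were histone genes on chromosome 13, named after their values were seen. Broad peaks assigned to H2ac6, H1f2 and H3c1 had changes of -0.23, -0.26 and -0.23 in GFI1-KD (limma adjusted p = 0.0043, 0.00343 and 0.00717). The start site in the peak assigned to H3c1 was that of H4c1.

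Measured from the most upstream coding start, broad peaks reached further into the gene than away from it. Of the 175 with a coding start, 17 (9.7%) held starts on both strands, as at Cep95 and Ddx5 or at Pigp and Ttc3. In the other 158, the peak began a median of 584 bp before the most upstream start and ended a median of 1045 bp after it (interquartile range 865 to 1232). The stretch after the start was the longer in 122 of them (77.2%). Any further start in a peak falls on that side by this measure, and its part in the shares was not tested. The same share was 72.9% in peaks of 1000 to under 1500 bp and 58.9% in all shorter peaks, whose medians were 264 bp before and 362 bp after.

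**Figure D2:**
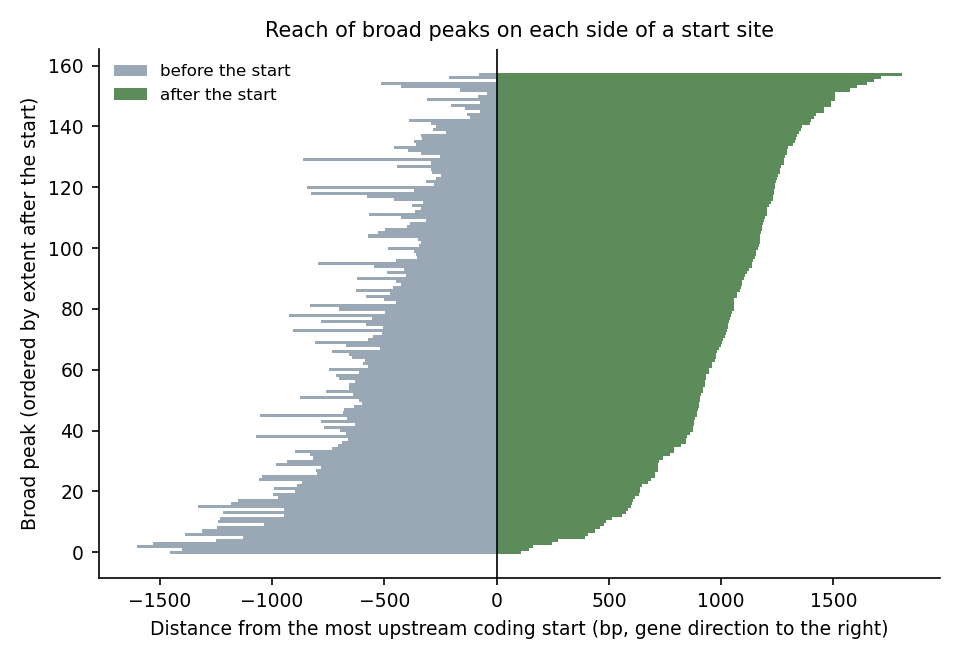
Reach of the 158 broad peaks with coding starts on 1 strand only: each horizontal bar is a peak, with the distance in bp before (left) and after (right) the most upstream coding start, ordered by the reach after it. Bars to the right (median 1045 bp) are longer than bars to the left (median 584 bp) in 122 peaks.

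The broad peaks were among the most accessible regions of these cells. Width had a median of 1603 bp and ran from 1501 to 2190 bp; 197 peaks were under 1750 bp and 6 reached 2000 bp, while the median autosomal peak measured 250 bp. The mean value over the 6 libraries ran from 199 to 3698 normalized reads, with a median of 1382.5, against 40.6 in shorter peaks. Of the 100 autosomal peaks with the highest mean, 32 were broad, and so were 128 of the 1000 highest. Per kb of peak, the median broad peak held 845 normalized reads (range 132 to 2105), shorter peaks 157, shorter gene-end peaks 264 and peaks of 1000 to under 1500 bp 696. Width and mean value went together across all autosomal peaks (Pearson r of their logs 0.83, a description, since a wider peak counts more reads) but hardly within the broad peaks (r = 0.19).

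Libraries held 16022763 to 27741446 reads in peaks and 256720 to 518010 reads in broad peaks. GFI1-KI 2 and 3 were the deepest, at 24365743 and 27741446 reads, and GFI1-KD 2 was the least deep, at 16022763. Defining GMP genes were open: the highest peak of 11 of 12 marker genes (Mpo, Elane and others) had a median of 899 normalized reads, but none of their peaks was broad, the widest measuring 1482 bp. Highest peaks of erythroid and megakaryocyte genes (peaks at 17 of 21) had a median of 381 and those of lymphoid genes (25 of 25) 173. Those of eosinophil, basophil and mast cell genes (14 of 15) had a median of 267. The ranges overlapped, from 265 to 1684 at GMP genes and from 26 to 1267 at erythroid and megakaryocyte genes. Genes without a peak were left out of these medians.

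In GFI1-KD nearly all broad peaks were fitted lower, by small amounts. Of the 253, 114 (45.1%) were called lower by limma at an adjusted p under 0.05 over all peaks, 1 was called higher and 138 were not called. Among the 170733 peaks tested over the whole table, 10.5% were called, 5.48% lower and 4.99% higher. That balance depends on the scaling: higher calls were 47.7% of all calls with the deposited values, 58.6% with libraries scaled to equal totals and 60.0% with median-of-ratios scaling. Of the broad peaks, 102 were called lower and 2 higher with equal totals, and 78 lower and 2 higher with median-of-ratios scaling. The fitted change was negative in 238 broad peaks and positive in 15. Its median was -0.19 on the log2(value + 1) scale, a fall of 12.5%, and the middle part of the distribution, from the 25th to the 75th percentile, ran from -0.24 to -0.12; the median of all tested peaks was -0.05. Every GFI1-KD value lay below every GFI1-KI value in 157 broad peaks (62.1%), against 17.4% of all tested peaks. With equal totals the shares were 51.8% and 14.1%, and with median-of-ratios scaling 46.6% and 14%. The reverse order was seen in 0 broad peaks, against 11.4% of all tested peaks.

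The broad peaks moved little but were measured closely. The 114 called lower had a median change of -0.24, where all peaks called lower had a median of -0.76. The median standard error was 0.07 in broad peaks and 0.21 over all tested peaks. Only the Pgr peak was called with a change of 2-fold or more. Calls rose with the value, from 23.7% called lower among 76 peaks with a mean under 1000 to 45.2% of 124 peaks from 1000 to under 2000 and 75.5% of 53 peaks at 2000 or more, while the median changes of these classes were -0.19, -0.19 and -0.21. The count called lower was 74 by edgeR's quasi-likelihood test and 25 by DESeq2 on the recovered reads. It was 36 without GFI1-KI 2 and 29 without GFI1-KI 3, the deepest libraries. Lower calls over all tested peaks numbered 9352 in the main fit, 8957 by edgeR and 3623 by DESeq2. They numbered 2940 without GFI1-KI 2 and 3392 without GFI1-KI 3, so the loss of calls without these libraries was not particular to broad peaks. By DESeq2 lower calls also fell in both sets. By edgeR they fell little over all tested peaks, from 9352 to 8957, but from 114 to 74 in broad peaks.

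Shorter peaks of like mean value were also mostly lower. The comparison took 244 broad peaks and 27468 shorter autosomal peaks in steps of 0.25 in the log2 of the mean, weighted as the broad peaks fall in those steps; the other 9 broad peaks had fewer than 20 shorter peaks of like mean. Of these broad peaks 43.9% were called lower, against 34.2% of the shorter ones, with a median change of -0.19 against -0.14 as the weighted mean of the steps' medians. The share with every GFI1-KD value below every GFI1-KI value was 61.9% in broad and 61.1% in shorter peaks with the deposited values. This near-equality depends on the scaling. With equal totals the share was 51.8% in all broad peaks and 46.8% in these shorter peaks, and with median-of-ratios scaling 46.6% and 36.8%. In the deposited values it was 63.3% against 67.6% at gene ends, and 56.8% against 36.0% away from them. Away from gene ends does not mean away from start sites. Of the 48 broad peaks there, only 22 held no start from the promoter table, and others, as at Runx1, did. How many of the shorter peaks there held a start was not counted. Shorter peaks of 1000 to under 1500 bp and like mean were called lower in 40.1%, at -0.16 on the same measure. These shares were not tested.

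**Figure D3:**
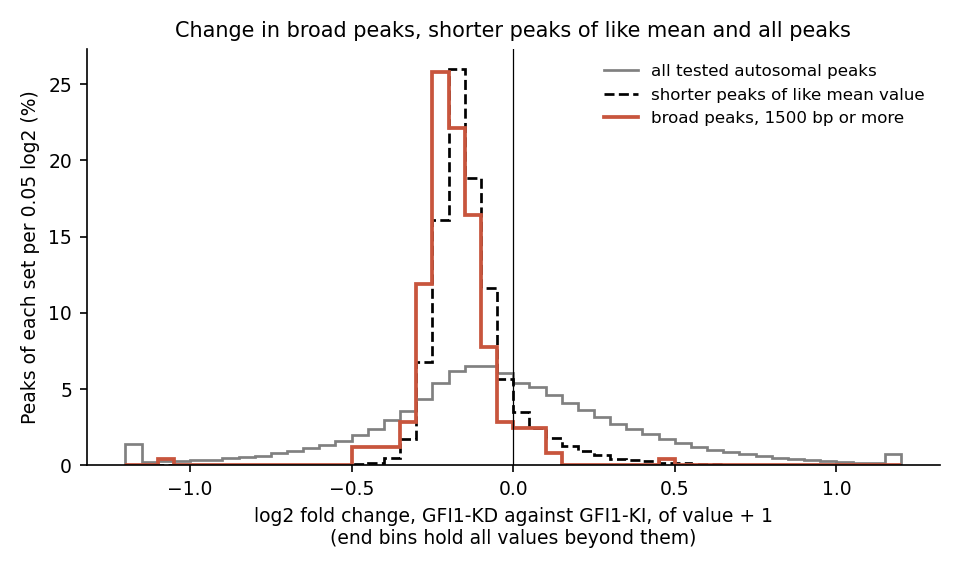
Distribution of the log2 fold change of GFI1-KD against GFI1-KI (horizontal axis) in 244 broad peaks, shorter autosomal peaks of like mean value and all tested autosomal peaks, as the percent of each set per step of 0.05. Broad peaks (median -0.19) and shorter peaks of like mean (-0.14 over the steps) both lie left of 0 in narrow distributions, and all peaks spread widely.

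Library by library, the difference between broad and like shorter peaks overlapped between genotypes. The value was, in each library, the median over broad peaks of log2(value + 1) less the median of the shorter peaks in the same step of mean value. It was -0.00, 0.05 and 0.05 in GFI1-KI 1 to 3 and -0.02, -0.05 and 0.03 in GFI1-KD 1 to 3. GFI1-KD 3 lay above GFI1-KI 1, so the genotypes overlapped. The difference of means was -0.05 (exact permutation test over libraries, two-sided, p = 0.2, where 0.1 is the smallest p that 3 against 3 allow). Among gene-end peaks the difference was -0.03 (196 broad against 10153 shorter peaks) and among the other peaks -0.08 (44 against 10095), each with an exact permutation p of 0.2. Adjusted over the 5 comparisons made per library, each p was 0.2.

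The share of each library's autosomal peak reads that fell in broad peaks was 1.75%, 1.86% and 1.90% in GFI1-KI 1 to 3 and 1.70%, 1.63% and 1.67% in GFI1-KD 1 to 3. All 3 GFI1-KD libraries lay below all 3 GFI1-KI libraries. The means were 1.84% ± 0.08 (SD, n = 3) and 1.66% ± 0.034 (SD, n = 3), a difference of -0.17 percentage points (exact permutation test, two-sided, p = 0.1, adjusted p = 0.2). The order followed the depth of the libraries in part: GFI1-KI 3 was the deepest and had the highest share, and GFI1-KD 2 was the least deep and had the lowest. Among libraries of like depth, GFI1-KI 1 (19408373 reads in peaks) had 1.75%, GFI1-KD 1 (19857646 reads) 1.70% and GFI1-KD 3 (19151059 reads) 1.67%. The part of depth in the genotype difference was not tested. The median broad peak had 1424, 1438 and 1492 normalized reads in GFI1-KI 1 to 3 and 1328, 1201 and 1346 in GFI1-KD 1 to 3 (exact permutation p = 0.1, adjusted 0.2).

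A single library stood lowest in most broad peaks. GFI1-KD 2 was the lowest of the 6 in 225 of 253 (88.9%) and the highest in 0. It was the lowest in 73.1% of shorter peaks of like mean value and in 27.1% of all tested peaks. With libraries scaled to equal totals it was the lowest in 134 of 253 broad peaks, against 28.1% of these shorter peaks and 17.3% of all tested peaks. With median-of-ratios scaling it was the lowest in 145 of 253 broad peaks, against 28.4% and 18.4%. The broad peaks thus stood further from the shorter peaks of like mean after either rescaling than in the deposited values. In the deposited values the highest library was GFI1-KI 2 in 97 peaks and GFI1-KI 3 in 92, GFI1-KI 1 in 37, GFI1-KD 1 in 15 and GFI1-KD 3 in 12.

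Among peaks of 250 bp or more, the fall of the broad peaks was the end of a gradient over width. The median change was -0.02 in peaks of 250 to 499 bp, -0.04 at 500 to 749 bp, -0.11 at 750 to 999 bp, -0.15 at 1000 to 1249 bp, -0.18 at 1250 to under 1500 bp and -0.19 in the broad peaks. Peaks called lower rose over the same classes from 6.6% to 45.1%. Among peaks with a mean of at least 500 the medians ran from -0.05 to -0.19. In peaks of that mean away from gene ends they ran from 0.01 at 250 to 499 bp to -0.19 in broad peaks, and at gene ends from -0.10 to -0.19. The share of reads in GFI1-KD against GFI1-KI was 4.1% higher in peaks of 250 to 499 bp and 9.3% lower in broad peaks (exact permutation p = 0.1 in each of the 6 classes, adjusted p = 0.1). Peaks under 250 bp, the median width of autosomal peaks, were in none of these classes. Classes share the libraries and their shares are parts of the same total, so they are not independent.

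**Figure D4:**
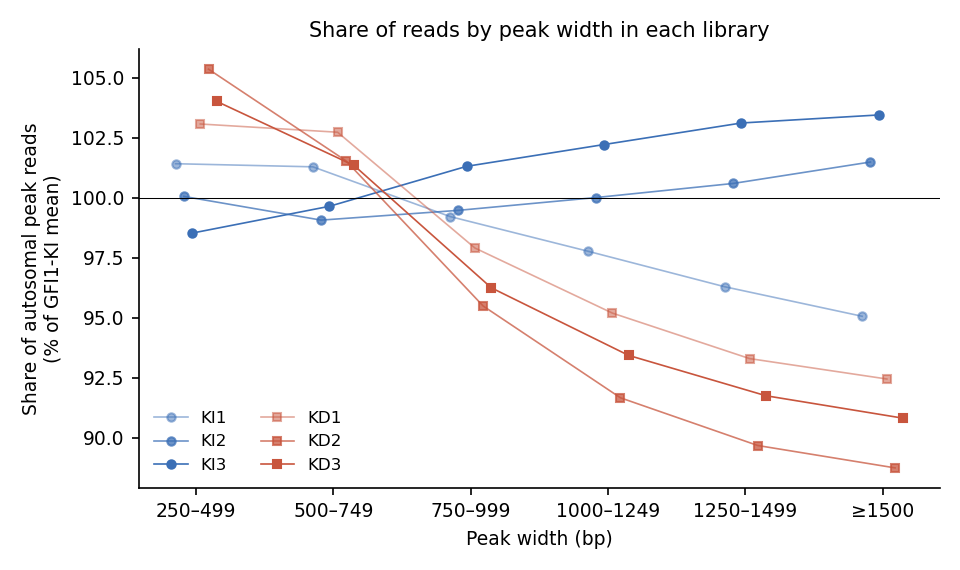
Share of autosomal peak reads by peak width (horizontal axis, bp) in each library, as a percent of the GFI1-KI mean of that width class, with circles for GFI1-KI and squares for GFI1-KD. The 3 GFI1-KD libraries fall from above 100 at 250 to 499 bp to their lowest in broad peaks, and GFI1-KI 1 falls with them to a smaller extent while GFI1-KI 2 and 3 rise.

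Within the broad peaks the size of the fall varied little with position or width. The median was -0.19 with a start site (182 peaks, 88 called lower) and -0.19 without (71 peaks, 26 called lower and 1 higher). It was -0.19 in 121 peaks under 1600 bp, -0.21 in 76 peaks of 1600 to under 1750 bp and -0.19 in 56 wider ones. By CpG ratio of the promoter it was -0.13 in 10 peaks under 0.6, -0.17 in 69 peaks from 0.6 to 0.9 and -0.21 in 96 peaks at 0.9 or above. Shorter peaks of mean 500 or more had medians of -0.12, -0.14 and -0.15 in the same classes, and those of at least 1000 bp among them -0.15, -0.16 and -0.16. These orders were not tested.

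The longest broad peak, chr15:85669911-85672101 (2190 bp), overlapped no protein-coding gene and had none within 50 kb. Noncoding genes were not part of the assignment. It held 1303, 1273 and 1181 normalized reads in GFI1-KI 1 to 3 and 1061, 987 and 1101 in GFI1-KD 1 to 3. The genotypes did not overlap, and the change was -0.25 ± 0.07 (standard error; limma adjusted p = 0.0142). Without GFI1-KI 2 the adjusted p was 0.0929, and by DESeq2 it was 0.0602. The next 2 lay over start sites. At Cdk13, a kinase of the RNA polymerase II tail (chr13:17803447-17805613, 2166 bp), the values were 2500, 2661 and 2642 in GFI1-KI and 2266, 2020 and 2262 in GFI1-KD, a change of -0.25 ± 0.05 (limma adjusted p = 0.00322). At Setd7, a lysine methyltransferase (chr3:51559544-51561684, 2140 bp), they were 2526, 2601 and 2447 against 2225, 1985 and 2148 (-0.25 ± 0.05, limma adjusted p = 0.00286). Both genes thus had all GFI1-KD libraries below all GFI1-KI libraries.

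The other long peaks differed in their calls. The peak at Kctd12, an auxiliary subunit of GABA-B receptors, was called lower (-0.23, limma adjusted p = 0.0115), but not without GFI1-KI 2 (0.0809), without GFI1-KI 3 (0.0904) or by DESeq2 (0.0954). At Mllt10, a fusion partner in leukaemias, the change was -0.14 (adjusted p = 0.13), at Scaf4, which binds the RNA polymerase II tail, -0.13 (0.136), and at Hivep1, a zinc-finger factor, -0.15 (0.0601), and none of the 3 was called in the fit of all libraries. Hivep1 was called with a replicate block (0.0431), with a mean of at least 50 (0.0447) and without GFI1-KD 1 (0.0154), and Mllt10 without GFI1-KI 1 (0.0234). The Mllt10 and Scaf4 values overlapped between genotypes, and the Hivep1 values did not: 2205, 2234 and 2203 in GFI1-KI against 2112, 1956 and 1927 in GFI1-KD.

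The highest broad peak lay between the divergent genes Cep95, which encodes a centrosomal protein, and Ddx5, which encodes an RNA helicase (chr11:106787500-106789449). It held 4006, 4033 and 4073 normalized reads in GFI1-KI 1 to 3 and 3404, 3257 and 3416 in GFI1-KD 1 to 3. The genotypes lay well apart, with a change of -0.27 ± 0.04 (limma adjusted p = 0.000217). Next came the peak at Kmt2e, a SET-domain chromatin protein (chr5:23432665-23434663), with 3810, 4120 and 4107 against 3484, 3171 and 3342 (-0.27 ± 0.04, limma adjusted p = 0.000591). This peak was the only one among the longest, the highest and the most firmly lower alike. The start site it held was that of the noncoding 5031425E22Rik.

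Of the other high peaks, 4 were called lower by limma and 2 were not. The peak at Setd5, a chromatin regulator, fell by 0.23 on the log2 scale (adjusted p = 0.00614), that at the kinase gene Gsk3b by 0.24 (0.00217) and that at Ube2d3, a ubiquitin-conjugating enzyme, by 0.22 (0.00804). DESeq2 called none of these 3 (adjusted p from 0.0788 to 0.161), and edgeR gave 0.0525 at Ube2d3. Without GFI1-KI 3 the adjusted p was 0.0652 at Setd5 and 0.107 at Ube2d3, and without GFI1-KI 2 it was 0.0741 at Ube2d3. At Nfe2l2, the regulator of the antioxidant response, the change was -0.15 (limma adjusted p = 0.0451) and the values overlapped, with 3148, 3466 and 3342 in GFI1-KI and 3172, 2910 and 2891 in GFI1-KD. This call was lost without GFI1-KI 2, GFI1-KI 3, GFI1-KD 2 or GFI1-KD 3 (adjusted p from 0.0764 to 0.27), with equal totals (0.112), with median-of-ratios scaling (0.201), with no filter on low values (0.0559), by edgeR (0.234) and by DESeq2 (0.486). The peak at Calr, an endoplasmic reticulum chaperone, held 3662, 3416 and 3431 against 3605, 3146 and 3252 (-0.07, limma adjusted p = 0.368). The peak at Fam72a and Srgap2 changed by -0.09 (limma adjusted p = 0.26, and 0.0214 without GFI1-KD 1). In both, GFI1-KD 1 lay within or above the GFI1-KI values.

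**Figure D5:**
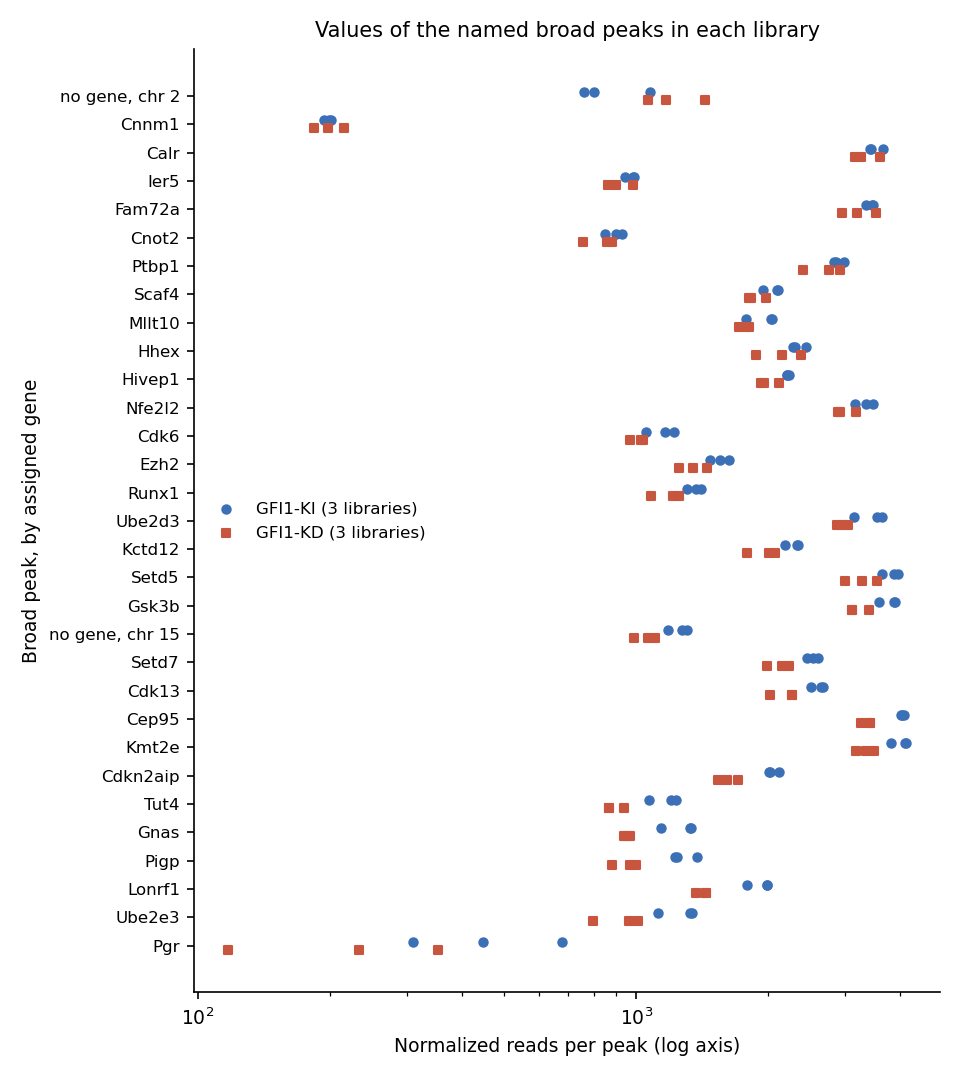
Normalized reads per peak (horizontal log axis) of the named broad peaks in each library, with circles for the 3 GFI1-KI and squares for the 3 GFI1-KD libraries, ordered by fitted change. At most genes the squares lie left of the circles by a small distance, and at some, such as Calr, Ier5 and Cnnm1, they overlap. At the chr 2 peak without an assigned gene the squares lie mostly to the right.

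The lowest p-values among broad peaks called lower were at Lonrf1, a RING-finger protein gene, and at the Cep95 peak. At Lonrf1 (chr8:36248053-36249735) the values were 1794, 1984 and 1991 in GFI1-KI and 1442, 1369 and 1440 in GFI1-KD, a change of -0.44 ± 0.06 (limma adjusted p = 5.83e-05), or 26.3% lower. At Cdkn2aip, which binds the tumour suppressor ARF (chr8:47713143-47714829), they were 2022, 2012 and 2118 against 1705, 1535 and 1613 (-0.34 ± 0.05, limma adjusted p = 0.000372). In both peaks the spread within a genotype was well under the gap between them. These peaks and those of the next paragraph were named for small p-values and genotypes that did not overlap.

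The peak shared by the divergent starts of Pigp, of GPI-anchor synthesis, and Ttc3, a ubiquitin ligase (chr16:94370134-94371932), held 1227, 1238 and 1374 normalized reads in GFI1-KI and 968, 879 and 1001 in GFI1-KD (-0.43 ± 0.07, limma adjusted p = 0.000397). The peak over a start of Gnas, the stimulatory G protein subunit of an imprinted locus (chr2:174329505-174331065), held 1139, 1325 and 1335 against 953, 938 and 968 (-0.41 ± 0.07, limma adjusted p = 0.000646). The peaks at Tut4, a terminal uridylyltransferase, and Ube2e3, a ubiquitin-conjugating enzyme, changed by -0.39 (limma adjusted p = 0.00108) and -0.46 (0.00127). Each of these had its GFI1-KD values below all GFI1-KI values, as the rule that named them required.

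Only 1 broad peak was called higher in GFI1-KD, at chr2:73037278-73038780 (1502 bp), with no protein-coding gene within 50 kb. It held 1073, 759.9 and 803 normalized reads in GFI1-KI 1 to 3 and 1432, 1065 and 1170 in GFI1-KD 1 to 3. GFI1-KD 2 lay below GFI1-KI 1, so the genotypes overlapped. The change was 0.48 ± 0.11 (limma adjusted p = 0.00504), and the call was lost with robust variances (adjusted p = 0.122) and by DESeq2 (0.08). Of the other 14 peaks fitted higher, that at Vim, the intermediate filament gene, held 1724, 1681 and 1697 against 1709, 1918 and 2000 (0.14, limma adjusted p = 0.132). GFI1-KD 1 lay among the GFI1-KI values there. Vim was picked for its promoter, by its rank among the peaks fitted higher.

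The peak that varied most within a genotype lay in Pgr, the progesterone receptor gene (chr9:8900147-8902017). It held 448, 676 and 310 normalized reads in GFI1-KI 1 to 3 and 353, 233 and 118 in GFI1-KD 1 to 3. The genotypes overlapped. Its change of -1.09 ± 0.26 (limma adjusted p = 0.00893) ranged from -1.45 to -0.66 over the alternative settings. The call was lost with robust variances (adjusted p = 0.323), by DESeq2 (0.363), without GFI1-KI 2 (0.0693) and without GFI1-KD 3 (0.074).

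Few broad peaks lay at the listed genes of GMP regulation, in numbers near the share of broad peaks among all autosomal peaks, 0.142%. Among 37 myeloid regulators, with 902 tested peaks, only Runx1 had one. The lists are not complete: Cebpd and Runx2, in none of them, also had a broad peak. Neither was called (-0.11 and -0.16, limma adjusted p = 0.297 and 0.147). The 32 stem and leukaemia regulators had 2 in 739 peaks, at Cdk6 and Hhex, the 33 immediate early and feedback genes 1, at Ier5, the 26 cell cycle and p53 genes 1, again at Cdk6, and the 32 chromatin regulators 2 in 494 peaks, at Ep300 and Ezh2. The lists of primary and late granule genes, monocyte and dendritic genes, ribosomal protein genes, interferon response genes, erythroid and megakaryocyte genes, lymphoid genes, and eosinophil, basophil and mast cell genes had 0. With 125 to 304 tested peaks in each of these 7 lists, a count of 0 is near that share too.

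At Runx1, a core regulator of blood formation (chr16:92697167-92698931), the broad peak lay over a start site and held 1406, 1366 and 1306 normalized reads in GFI1-KI and 1250, 1082 and 1215 in GFI1-KD. The values did not overlap, and the change was -0.20 ± 0.06 (limma adjusted p = 0.0452). Over all 902 peaks of the myeloid regulators, 47 were called higher and 55 lower, near the shares over all peaks, with a median of -0.05. At Ezh2, the methyltransferase of the Polycomb complex PRC2 (chr6:47594133-47595708), the values were 1475, 1627 and 1552 against 1350, 1253 and 1450 (-0.20 ± 0.06, limma adjusted p = 0.042). At Ep300, a histone acetyltransferase, they were 1824, 1832 and 1897 against 1723, 1537 and 1678 (-0.17, limma adjusted p = 0.0496). All 3 calls lay close to the threshold. The Runx1 call was lost in 5 of 6 fits that left out 1 library, all but that without GFI1-KD 1 (adjusted p from 0.0846 to 0.168), with median-of-ratios scaling (0.0841), with no filter on low values (0.0508), by edgeR (0.0907) and by DESeq2 (0.228). The Ezh2 call was lost without GFI1-KI 2, GFI1-KI 3, GFI1-KD 1 or GFI1-KD 2 (adjusted p from 0.0526 to 0.237), with equal totals (0.0539), with median-of-ratios scaling (0.0857), by edgeR (0.0885) and by DESeq2 (0.223).

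The broad peaks at Cdk6, the G1 kinase, Hhex, a homeobox factor, and Ier5, an immediate early gene, were not called. At Cdk6 the values were 1052, 1222 and 1165 in GFI1-KI and 966, 1027 and 1039 in GFI1-KD, which did not overlap (-0.18, limma adjusted p = 0.0935, and 0.0258 without GFI1-KI 1). At Hhex the change was -0.14 (0.173, and 0.0151 without GFI1-KD 1) and at Ier5 -0.09 (0.433), with overlapping values.

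Marker genes of some other cells differed between genotypes. Erythroid and megakaryocyte genes (peaks at 17 of 21) took 0.092% to 0.10% of autosomal peak reads in the GFI1-KI libraries and, in GFI1-KD, 0.084% to 0.088%, with 2 of 155 tested peaks called higher and 21 lower, where 4.99% and 5.48% of all tested peaks were. Lymphoid genes (25 of 25) held 0.083% to 0.089% against 0.080% to 0.082%, with 3 of 224 peaks higher and 17 lower. Eosinophil, basophil and mast cell genes (14 of 15) held 0.064% in each GFI1-KI library and 0.063% to 0.064% in GFI1-KD. Of their 154 tested peaks, 9 were called higher and 17 lower. Peaks at monocyte and dendritic genes were called higher in 40 and lower in 8 of 304, with a median of 0.13, and those at primary and late granule genes higher in 19 and lower in 4 of 199, with a median of 0.09. GMP marker genes held 0.122% to 0.127% against 0.127% to 0.129%. In sorted cells a change in the mix of cells and a change within each cell cannot be told apart, and their part in the change of the broad peaks was not tested.

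Away from gene ends the change was of like size. The 48 peaks that were not gene-end peaks had a median change of -0.19, with 15 called lower and 1 higher. Only 22 of them held no start site from the promoter table, so this set mixes promoters with other sites. Examples chosen after their values were seen lay within Maml3, a Notch coactivator, and Cpeb2, a translational regulator, with changes of -0.28 and -0.28. At Maml3 (chr3:52101837-52103427) the values were 2357, 2592 and 2599 in GFI1-KI and 2146, 1870 and 2198 in GFI1-KD (limma adjusted p = 0.00356). The 2 broad peaks assigned to Rai1, a chromatin-binding protein gene, were both not called, at -0.22 over its start and -0.09 further along the gene.

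Near the width threshold the changes spanned both signs. Just inside lay peaks at Cnnm1, a metal transport mediator (1501 bp, change 0.00), Ptbp1, a splicing regulator (1501 bp, -0.10), and Cnot2, a subunit of the CCR4-NOT complex (1501 bp, -0.10), and the chr 2 peak of 1502 bp described above. The Cnnm1 peak was the lowest of all members, at 199, 195 and 202 normalized reads in GFI1-KI and 198, 184 and 215 in GFI1-KD. Just outside lay peaks at Ncoa2, a nuclear receptor coactivator (1497 bp, -0.30), Zbtb44 (1497 bp, -0.185), Ttll11 (1497 bp, 0.06) and Zdhhc8 (1495 bp, -0.15).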

How the data were processed

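The deposited table held normalized read counts, a coverage signal per consensus peak, for 6 ATAC-seq libraries. Per the submitters' processing notes, the build was mm10; these list MACS2 and DiffBind, the trimmer Trim Galore, BWA, Picard, SAMtools, HOMER and ChIPseeker, all without versions. The merging of peaks and the scaling factors were not given in the sources used here. Columns named WT were read as GFI1-KI by number, since the title of the series sets wildtype against low GFI1. Chromosome codes were read as alphabetical order of names, which put 16.0% of peaks at gene ends on the 18 codes that differ, against 2.6% in numeric order.

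Deposited values were whole multiples of 1 step per library (100% at a tolerance of 0.01), from 0.7552 to 1.2342 normalized reads, so reads were recovered. On these reads edgeR 4.0.16 called 21516 peaks. The main test was limma 3.58.1 with a variance trend and without a replicate block, on log2(value + 1) for 170733 peaks with a mean of at least 10, with Benjamini-Hochberg adjustment over all of them at 0.05, which called 17872. Fold changes are on that scale. Per-library values were compared by exact permutation. Scripts were tested on simulated data. The rescaled counts of non-overlapping peaks and of the lowest library were added after seeing the data. Protein-coding genes were assigned by overlap, or else as the nearest within 50 kb. Read numbers limit counting error only.

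Members, gene lists and tests were chosen with earlier results of these data known. Named peaks were the 8 longest, the 8 highest, up to 8 called in each direction with the smallest p and no overlap of genotypes (none qualified as higher), the smallest p of each gene list, 4 on each side of the width threshold and the widest spread. Promoters came from RefSeq and were printed where a peak held 1 coding start. Whole-peak sequence was not used here.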

Additional observations from a re-analysis of the deposited data

How the results depend on the processing

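Direction of the median change, of the share of reads and of the comparison with shorter peaks was kept under each alternative run, with the median change between -0.24 and -0.14. Counts moved more. Called broad peaks (115) were 75 by edgeR, 25 by DESeq2 and 46 at a threshold of 0.01; with widths of at least 1000 bp they were 904 and of at least 2000 bp 4. Called lower (114) were 74, 25, 45, 851 and 4 in the same order. Called higher (1) were 2 with libraries scaled to equal totals and 2 with median-of-ratios scaling, 0 with robust variances, 0 by DESeq2, 53 from 1000 bp and 0 from 2000 bp. Leaving out 1 library at a time gave 30 to 137 called, 29 to 135 lower and 1 to 2 higher. Over all tested peaks the same fits called 6996 to 22129. The replicate block gave 133 called, 132 lower and 1 higher. Same-numbered libraries shared only a number: their deviations from the genotype means correlated at -0.02, -0.04 and 0.06. The share difference was -1.11 percentage points from 1000 bp and -0.007 from 2000 bp, and -0.22 to -0.14 leaving out libraries. From 2000 bp, the difference from like shorter peaks was -0.072 at gene ends and -0.017 elsewhere. For the 31 named peaks, 442 alternative values kept their side of the threshold, 44 lost and 8 gained a call, and 2 turned: Cnnm1, at 0.001 over all libraries, was -0.014 without GFI1-KI 2 and -0.057 without GFI1-KD 3 (range -0.057 to 0.056). Scaling moved the median of all peaks from -0.05 to -0.01. With 3 libraries a genotype, no exact permutation test can pass 0.05, and small changes are callable only in peaks with many reads.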
